A study of Mus musculus with 8 samples.

Results

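A set of 147 of the 14942 probes in the authors' log2 table gave a lower signal in wild-type (WT) Foxp3+ thymocytes than in WT Foxp3- thymocytes. The signal was also lower in Foxp3- thymocytes labelled as E2A HEB knockout (KO). In KO Foxp3+ cells it stood within 0.5 of the WT Foxp3+ level on the authors' values. Of these probes, 141 carried 1 gene symbol and covered 121 genes, and 6 had no gene named. Genes of DNA replication and mitosis (Top2a, Cdk1, Birc5, Tyms) and H2A histones were among them. So were parts of the T cell receptor complex (Cd3g, Cd247), the co-stimulatory receptor Cd28, the transcription factors Lef1 and Ikzf1 and the microRNA-processing gene Drosha. The members were chosen from the means of the 2 arrays per group by 3 differences of the authors' values. These are WT Foxp3+ minus WT Foxp3- (at most -0.5), KO Foxp3- minus WT Foxp3- (at most -0.5) and KO Foxp3+ minus WT Foxp3+ (between -0.5 and 0.5, on the log2 scale).

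The 8 arrays fell into 4 groups of 2: mice labelled WT Foxp3KI, or E2Af/f HEBf/f ER-Cre Foxp3KI (the KO), and from each genotype a sorted CD4+ Foxp3+ fraction and a CD4 single-positive Foxp3- fraction of thymus T cells. ER-Cre is a recombinase that works once tamoxifen reaches it, and the f alleles are the floxed ones it cuts. All groups, the controls included, carried the Foxp3 knock-in, and per the labels WT or floxed mice alike took 3 mg of tamoxifen in corn oil by mouth, 4 times over 10 days. Age, the promoter of ER-Cre, and whether an array came from 1 mouse or from pooled mice are not given in the labels. The p-values below therefore measure the spread between these arrays, which may be technical.

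E2A (gene Tcf3) and HEB (gene Tcf12) belong to the E proteins, which bind the E-box CANNTG as pairs through a basic helix-loop-helix domain and act through most of T cell development in the thymus. Thymocytes divide vigorously before they reach the CD4 CD8 double-positive stage and much less afterwards, and cells selected on a T cell receptor mature into CD4 single-positive cells. A part of these turns on Foxp3, the factor that defines regulatory T cells. Id proteins bind E proteins and keep them off DNA.

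The differences that chose the members share arrays: the WT Foxp3- arrays enter the first and the second, and the WT Foxp3+ arrays enter the first and the third. The members' values in these differences are therefore a description, and nothing is supported with them. The thresholds run through a continuous range, since 46 members lay within 0.05 and 76 within 0.1 of one. Just inside the threshold on KO Foxp3- minus WT Foxp3- were probes of Mlec (-0.5007) and Uchl5 (-0.5015), and just outside it Eif2b1 (-0.4998) and Timm21 (-0.4986). For WT Foxp3+ minus WT Foxp3- the nearest were Gramd1a (-0.5019) and an unnamed probe (-0.5098) inside, and Prc1 (-0.4995) and Hmgn2 (-0.4988) outside. On the difference between the Foxp3+ groups, Pvr (-0.4828) and Tex9 (-0.4775) were the nearest inside, with an unnamed probe (-0.5006) and a probe of Abcb9 (-0.5165) outside. Of the 160 probes that met both of the first 2 criteria, 13 were left out because KO Foxp3+ cells were lower than WT Foxp3+ cells as well, among them probes of Pclaf, Igf2bp3, Psat1, Itm2a and the histone genes H2ac7 and H2ac15. None was left out for being higher there (0 probes).

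All levels below are log2 intensities after background correction and quantile normalization, on which the authors' log2 differences widen, and all folds and differences are on that scale unless the authors' values are named. A probe was called when limma's adjusted p, over the 13526 probes detected on at least 2 arrays, was under 0.05. Between 11462 and 12540 probes were detected per array, and replicates correlated across probes at 0.988 (KO Foxp3+) to 0.996. The table has no probe of Tcf3. The Tcf12 probe measured 7.66 and 7.57 in WT Foxp3-, 6.86 and 6.74 in KO Foxp3-, 7.29 and 7.48 in WT Foxp3+ and 6.44 and 6.22 in KO Foxp3+ cells (adjusted p = 0.00387 for KO against WT in Foxp3- and 0.00363 in Foxp3+ cells, limma); whether it lies in the deleted part of the gene is not given, so it does not settle how far the deletion went. One Foxp3 probe was not detected in either Foxp3- group and was at least 33.9-fold higher in WT and at least 24.3-fold higher in KO Foxp3+ cells, as sorted; a second Foxp3 probe was not tested.

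Markers of other cells moved with the groups. All 12 dendritic cell and macrophage probes (median log2 difference 3.88), all 5 granulocyte probes (median 3.86) and both erythroid probes (median 3.26; 2 of 2) were higher in WT Foxp3+ than in WT Foxp3- cells. The summed granulocyte level was 7.48 to 7.84 in WT Foxp3-, 7.37 to 7.42 in KO Foxp3-, 13.4 to 13.5 in WT Foxp3+ and 10.0 to 10.7 in KO Foxp3+ cells. In KO Foxp3- cells the erythroid probes were higher than in WT (summed level 10.9 to 11.1 against 7.55 to 7.90), and so were 3 of 5 natural killer and invariant NKT probes (10.8 to 10.9 against 9.45 to 9.50) and 5 of 12 dendritic cell and macrophage probes (median 0.529, 0 lower). Of the 4 CD8 T cell probes, those of Ccl5 and Nkg7 were higher, while a Cd8b1 probe, a member, was lower and the other Cd8b1 probe had -0.39 (not called). In Foxp3+ cells, 6 of 12 dendritic cell and macrophage probes were lower in KO than in WT (median -0.904, 0 higher). Of 10 immediate early and heat shock probes, a list kept for signs of handling, 6 were higher in KO Foxp3- cells (median 0.85), 9 in WT Foxp3+ cells (median 0.918) and 3 in KO against WT Foxp3+ cells (median 0.42), with 0 lower. The T cell markers themselves were lower than in WT Foxp3- cells, where their summed level was 15.1 to 15.2. It was 14.6 to 14.7 in KO Foxp3-, 14.5 to 14.6 in WT Foxp3+ and 14.3 to 14.4 in KO Foxp3+ cells. Of their 5 probes, 3 were called lower in KO Foxp3- and 5 in WT Foxp3+ cells, with 0 higher. Among the 5 was a bright probe of the member Cd3g, so the rule fixed part of this drop. The part of these shifts in the members' differences was not tested.

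Each of the 147 members had both KO Foxp3- arrays and both WT Foxp3+ arrays below both WT Foxp3- arrays. The same held for 33.7% and 41% of all probes in these 2 comparisons. All 147 passed the detection filter, and all were detected on both WT Foxp3- arrays; 4 members were detected on neither array in KO Foxp3- cells, 4 in WT Foxp3+ cells and 5 in KO Foxp3+ cells. The median level of the members was 8.77 in WT Foxp3-, 7.67 in KO Foxp3-, 7.52 in WT Foxp3+ and 7.37 in KO Foxp3+ cells. The median difference was -0.94 between the Foxp3- groups and -1.14 between the WT fractions, where the medians of all probes were -0.0065 and -0.073. Of the members, 135 were called lower in KO Foxp3- cells (10.9% of all probes were) and 137 lower in WT Foxp3+ cells (16.6% of all probes). Both counts restate the rule. Scaling the arrays by their medians instead moved the median of all probes between the WT fractions to -0.186 and the split of all calls there from 2246 lower and 1983 higher to 3246 and 1528. Without WT Foxp3- replicate 1, 85 members were called lower in KO Foxp3- cells. In RNA from a mixed fraction, fewer cells of a type and less RNA per cell cannot be told apart.

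The members differed in how the KO difference compared with the fraction difference. The roles used to order them (division, histone, T cell signalling, transcription, cytoskeleton, RNA, metabolism, interferon) were given after the genes and their values were seen. On the authors' values, the ratio of the KO difference to the fraction difference (1 where KO Foxp3- cells had the level of WT Foxp3+ cells) had a median of 0.887 over the members, and in 54 members KO Foxp3- cells were at or below WT Foxp3+ cells. The median ratio was 1.29 for 8 histone probes, 1.14 for 27 division probes, 0.89 for 20 metabolism probes, 0.881 for 10 T cell signalling probes and 0.556 for 8 transcription probes. Among the histone probes 8 of 8, among the division probes 19 of 27 and among the transcription probes 1 of 8 had KO Foxp3- cells at or below WT Foxp3+ cells. The highest ratio, 2.45, was that of Arhgap20 and the lowest, 0.216, that of Rgcc, a regulator of the cell cycle named for its response to complement.

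The 27 division probes (24 genes) held the lowest KO values of the set. Top2a (chr11:98992947-99024199), the topoisomerase that untangles replicated chromosomes, measured 8.76 and 8.84 in WT Foxp3-, 6.56 and 6.54 in KO Foxp3-, 7.03 and 6.76 in WT Foxp3+ and 6.90 and 5.73 in KO Foxp3+ cells. Both WT Foxp3- arrays stood above the other 6, and KO Foxp3- cells lay below both WT Foxp3+ arrays. Its difference was -2.25 (SE 0.31) for KO against WT in Foxp3- cells and -1.91 (SE 0.31) between the WT fractions. Cdk1, the kinase that drives entry into mitosis, measured 7.02 and 7.05 in WT Foxp3-, 5.04 and 5.53 in KO Foxp3-, 5.71 and 6.04 in WT Foxp3+ and 5.97 and 5.05 in KO Foxp3+ cells. The KO Foxp3- arrays again lay below both WT Foxp3+ arrays, with a difference of -1.75 (SE 0.29) in KO Foxp3- cells. Tyms, which makes the thymidylate needed for DNA, measured 8.49 and 8.70 in WT Foxp3-, 7.20 and 7.21 in KO Foxp3-, 7.83 and 7.98 in WT Foxp3+ and 7.43 and 7.30 in KO Foxp3+ cells. Both KO Foxp3- arrays lay below all the other arrays, and its ratio of 1.88 was the highest of the group. Nusap1, a spindle protein, measured 7.92 and 7.71 in WT Foxp3-, 5.53 and 5.75 in KO Foxp3-, 6.82 and 6.76 in WT Foxp3+ and 7.09 and 5.43 in KO Foxp3+ cells. The KO Foxp3- arrays fell below both WT Foxp3+ arrays, while 1 of the KO Foxp3+ arrays lay above these and the other below the KO Foxp3- arrays.

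Replication factors made up a second share of the division probes. Clspn (claspin, a mediator of the replication checkpoint) had 2 member probes, of which one measured 8.07 and 8.18 in WT Foxp3-, 6.08 and 6.19 in KO Foxp3-, 6.33 and 6.11 in WT Foxp3+ and 6.54 and 4.77 in KO Foxp3+ cells. The Foxp3- arrays of the genotypes stood about as far apart as the WT fractions (-1.99 (SE 0.46) and -1.90 (SE 0.46)), and the 2 KO Foxp3+ arrays bracketed every other array of the Foxp3+ and KO groups. Mcm10, a factor that starts replication forks, measured 7.22 and 7.06 in WT Foxp3-, 5.28 and 5.30 in KO Foxp3-, 6.07 and 6.14 in WT Foxp3+ and 6.24 and 4.52 in KO Foxp3+ cells and showed the same split. Cdc6, which loads the replicative helicase, measured 7.15 and 6.96 in WT Foxp3-, 5.32 and 5.47 in KO Foxp3-, 6.05 and 5.84 in WT Foxp3+ and 5.16 and 5.25 in KO Foxp3+ cells. Here the KO Foxp3+ arrays were alike and lay below both WT Foxp3+ arrays. Uhrf1, which carries DNA methylation through replication, measured 9.58 and 9.66 in WT Foxp3-, 7.96 and 8.06 in KO Foxp3-, 8.66 and 8.42 in WT Foxp3+ and 8.89 and 7.39 in KO Foxp3+ cells. Esco2, a cohesin acetyltransferase, measured 6.47 and 6.29 in WT Foxp3-, 4.50 and 4.67 in KO Foxp3-, 4.81 and 4.83 in WT Foxp3+ and 5.02 and 4.50 in KO Foxp3+ cells; it was not detected on either KO Foxp3- array, which makes it at least 3.01-fold higher in WT Foxp3- cells. Spc25, a kinetochore subunit, had 2 member probes with KO differences of -1.74 (SE 0.26) and -1.55 (SE 0.20). Birc5 (survivin, part of the chromosomal passenger complex) also had 2, at -1.87 (SE 0.30) and -1.67 (SE 0.16).

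A few division members had a larger difference between fractions than between genotypes. Kif23, a kinesin of the midbody, measured 9.44 and 9.41 in WT Foxp3-, 7.69 and 7.72 in KO Foxp3-, 6.42 and 6.75 in WT Foxp3+ and 6.29 and 5.12 in KO Foxp3+ cells. The KO Foxp3- arrays stayed above all 4 Foxp3+ arrays, and its fraction difference of -2.84 (SE 0.32) was the lowest of the group. E2f1, a transcription factor that opens S phase, measured 7.97 and 7.99 in WT Foxp3-, 6.85 and 7.03 in KO Foxp3-, 6.52 and 6.22 in WT Foxp3+ and 6.32 and 5.29 in KO Foxp3+ cells. Tcf19, a growth-associated factor, measured 8.08 and 8.20 in WT Foxp3-, 7.21 and 7.55 in KO Foxp3-, 6.83 and 6.58 in WT Foxp3+ and 6.81 and 6.32 in KO Foxp3+ cells. These 3 were also the division probes called lower in KO Foxp3+ than in KO Foxp3- cells (3 of 27). The other division members, from Pbk (-2.03 (SE 0.41)) to Ncapd2 (-0.69 (SE 0.23) for KO against WT in Foxp3- cells), lay between these values. In all, 26 of the 27 were called lower in KO Foxp3- and 24 in WT Foxp3+ cells (10.9% and 16.6% of all probes were). The rule required this direction. Double-positive thymocyte markers (Rag1, Dntt and Cd8b1 among them) had a summed level of 10.9 in WT and 10.0 to 10.1 in KO Foxp3- cells. In Foxp3+ cells it was 10.1 to 10.4 in WT and 9.82 to 10.9 in KO. Most of that sum was the Cd8b1 member probe, whose lower values the rule required. Of the 6 tested probes, that 1 was called lower in KO Foxp3- cells and 0 higher (median -0.249). In WT Foxp3+ cells 2 were called lower and 0 higher (median -0.61). The part of these markers in the division values was not tested.

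The wider cell cycle was read from a list of 22 genes, drawn up without the rule but with earlier results of these data known. Of its 26 tested probes, 20 were called lower in KO than in WT Foxp3- cells and 0 higher (10.9% of all probes were called lower), with a median difference of -0.747 against -0.0065 over all probes. Between the WT fractions 10 were lower in Foxp3+ cells and 1 was higher, with a median of -0.391. Of the 26, 5 were members (Top2a, Cdk1, 1 of 2 tested Tyms probes and 2 of 3 Birc5 probes), whose lower values the rule required. Among the other 21, 15 were called lower and 0 higher in KO Foxp3- cells (median -0.675), and 5 lower and 1 higher in WT Foxp3+ cells (median -0.303). Mcm7, a subunit of the replicative helicase, was the clearest case, at -1.43 (SE 0.19) in KO Foxp3- cells (adjusted p = 0.00183, limma) and 0.11 (SE 0.19) between the WT fractions (adjusted p = 0.692). Plk1, a mitotic kinase, had -0.99 (SE 0.14) (adjusted p = 0.00248) and -0.23 (SE 0.14) (adjusted p = 0.252). Mcm4 had 2 probes, of which one was higher in WT Foxp3+ cells (0.54 (SE 0.11), adjusted p = 0.0088) and neither was called in KO Foxp3- cells. Between KO and WT Foxp3+ cells 0 of the 26 were called (2.40% of all probes were called lower, 324, and 1.47% higher, 199; with median scaling 369 and 123); their median was -0.352, and at an unadjusted p under 0.05 the number was 12.

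The medians of the core histones differed by type. The H2A genes behind 7 member probes lie in the histone clusters on chromosomes 13 and 3, and their coding sequences are so alike that a probe may read several of them, so the single-gene values are uncertain. H2ac12 (chr13:22035122-22035643) measured 11.40 and 11.51 in WT Foxp3-, 10.05 and 9.92 in KO Foxp3-, 10.45 and 10.25 in WT Foxp3+ and 10.47 and 9.32 in KO Foxp3+ cells. The KO Foxp3- arrays lay below both WT Foxp3+ arrays, and the KO Foxp3+ arrays stood on either side of them. H2ac24, the brightest, measured 13.19 and 13.14 in WT Foxp3-, 12.19 and 12.06 in KO Foxp3-, 12.50 and 12.31 in WT Foxp3+ and 12.76 and 11.55 in KO Foxp3+ cells, with the same order of groups. H2ac20 and H2ac21, which lie next to each other on chromosome 3, differed by -0.89 (SE 0.28) and -0.94 (SE 0.38) in KO Foxp3- cells. The eighth histone member was a probe of H3f3a, which encodes the replication-independent variant H3.3, at -0.79 (SE 0.18); a second, dim H3f3a probe had -0.22 and was not called. Among the 8, 4 were called lower in KO Foxp3- cells and 3 in WT Foxp3+ cells (10.9% and 16.6% of all probes were). The rule required this direction.

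Over all H2A genes of the clusters, 14 probes were tested, and 6 were called lower in KO Foxp3- cells and 0 higher, with a median of -0.989. Their values ran from -1.61 to 0.445, with 11 of 14 negative, and 10.9% of all probes were called lower. The 10 H2B probes had a median of -0.186 with 0 called in that comparison, where 2865 probes of the whole array were called, and the 10 H4 probes a median of 0.284 with 0 lower and 1 higher. H3 lay between, with a median of -0.466 and 5 of 10 probes lower. Between the WT fractions 4 H2A probes were lower in Foxp3+ cells and 0 higher, while 7 of 10 H4 probes were higher and 0 lower. Of the H2B probes 1 was lower and 4 were higher, and of the H3 probes 3 were lower and 1 was higher. Of all probes, 16.6% were called lower. In Foxp3+ cells 8 of 10 H4 probes and 4 of 10 H2B probes were called lower in KO than in WT (limma). It was 0 of 14 H2A probes and 1 of 10 H3 probes, and 2.40% of all probes. At an unadjusted p under 0.05 (limma) it was 2 H2A probes in that comparison, and 3 H2B probes in KO Foxp3- cells. No H2B, H3-cluster or H4 probe was a member (0 of each). This grouping by histone type was made after the values were seen.

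The promoters of these genes are shown because the CCAAT box, the site of the factor NF-Y, is a known element of G2/M and histone promoters. The windows hold the 250 bases before the annotated start, read 5′ to 3′ on the gene's strand, from RefSeq on GRCm38.p6, with CCAAT or its complement ATTGG in capitals. They lie at chr11:99024190-99024439 on the minus strand for Top2a, chr10:69352913-69353162 (minus) for Cdk1 and chr13:22035644-22035893 (minus) for H2ac12.
Top2a: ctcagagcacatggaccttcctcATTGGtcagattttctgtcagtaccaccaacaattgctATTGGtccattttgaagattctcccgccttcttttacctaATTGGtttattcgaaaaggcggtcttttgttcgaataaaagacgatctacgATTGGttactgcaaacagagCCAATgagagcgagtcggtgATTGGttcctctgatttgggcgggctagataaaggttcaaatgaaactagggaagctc
Cdk1: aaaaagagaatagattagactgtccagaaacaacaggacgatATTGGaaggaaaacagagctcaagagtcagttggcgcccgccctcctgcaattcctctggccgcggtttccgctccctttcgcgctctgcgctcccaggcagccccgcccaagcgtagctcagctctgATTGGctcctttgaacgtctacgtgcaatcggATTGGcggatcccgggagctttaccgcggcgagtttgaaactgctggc
H2ac12: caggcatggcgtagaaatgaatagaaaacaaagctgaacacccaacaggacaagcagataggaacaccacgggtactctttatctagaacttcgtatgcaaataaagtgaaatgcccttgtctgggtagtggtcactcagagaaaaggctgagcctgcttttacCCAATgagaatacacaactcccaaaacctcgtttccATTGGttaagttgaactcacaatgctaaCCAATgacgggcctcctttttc
The Top2a window held 6 such motifs, and those of Cdk1 and H2ac12 held 3 each. A CCAAT motif on either strand was present in 8 of 8 windows of histone members (100%) and in 13 of 21 of division members (61.9%), against 43.2% of the 125 windows of all matched member genes and 35.5% of the 10542 windows of genes with a probe in the authors' table. This motif was searched for after the gene names were seen, and a match is a string of letters, not a bound site. Promoters of histone and division genes outside the members were not counted apart, so these shares do not set the members off from such genes. Windows were found for 97 of the 121 member genes.

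The level in KO Foxp3+ cells, the third criterion, rested on arrays that were unlike each other for these genes. On 24 of the 27 division probes and 7 of the 8 histone probes, KO Foxp3+ replicate 1 lay above replicate 2. Relative to the WT Foxp3+ mean, the median division probe stood at -0.071 on replicate 1 and at -0.836 on replicate 2, and the median histone probe at 0.18 and -0.865. On replicate 2, 20 of 27 division and 7 of 8 histone probes were at least 0.5 below the WT Foxp3+ mean. For T cell signalling the medians ran the other way, -0.359 and 0.091, and for transcription they were -0.029 and -0.065. Over all members 20 of 147 (13.6%) differed by more than 1 between the 2 arrays, against 157 of 13526 probes (1.16%). The widest gaps were those of Myl10, a myosin light chain (7.20 and 7.28 in WT Foxp3-, 6.11 and 6.14 in KO Foxp3-, 6.09 and 4.87 in WT Foxp3+ and 7.61 and 4.72 in KO Foxp3+ cells), and Il17rb, a receptor for interleukin 25 (8.92 and 8.66 in WT Foxp3-, 8.01 and 7.90 in KO Foxp3-, 6.08 and 5.66 in WT Foxp3+ and 7.44 and 5.38 in KO Foxp3+ cells), where replicate 1 was the higher.

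With KO Foxp3+ replicate 1 left out of the group means, 133 of the 147 probes still met the rule, and among the 35 division and histone probes 24 did. With replicate 2 left out, 136 and 34 did. When the same rule was put on the background-corrected values, which spread low signals further, 478 probes met it, 114 of the 147 among them (77.6% of the members and 23.8% of the 478), with 20 of the 35 division and histone probes. Called between KO and WT in Foxp3+ cells were 6 members lower (2.40% of all probes were) and 1 higher (1.47%). The lower ones were Tex9, Pvr, Ptgir, Aqp9, Cdc6 and Isg15, and the higher one a probe of Xist. Leaving out KO Foxp3+ replicate 1 brought the number called to 23 and leaving out replicate 2 to 22, while without either WT Foxp3+ array it was 1.

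Genes of T cell signalling, surface receptors included, formed the next group, with 10 probes of 9 genes. Cd3g (chr9:44969572-44980431), a chain of the CD3 complex, measured 13.97 and 14.11 in WT Foxp3-, 13.38 and 13.51 in KO Foxp3-, 13.28 and 13.41 in WT Foxp3+ and 12.90 and 12.83 in KO Foxp3+ cells. KO Foxp3- and WT Foxp3+ cells overlapped, and both KO Foxp3+ arrays lay below them all. Cd28, the co-stimulatory receptor, had 2 member probes, one at 11.15 and 11.33 in WT Foxp3-, 10.49 and 10.19 in KO Foxp3-, 10.25 and 10.24 in WT Foxp3+ and 10.00 and 10.55 in KO Foxp3+ cells. Its KO Foxp3-, WT Foxp3+ and KO Foxp3+ arrays overlapped, and another Cd28 probe that was no member stood at -0.47 in KO Foxp3- cells, not called. Cd247, the zeta chain, measured 11.44 and 11.54 in WT Foxp3-, 10.82 and 10.72 in KO Foxp3-, 10.44 and 10.66 in WT Foxp3+ and 9.91 and 10.57 in KO Foxp3+ cells, but its 2 other probes differed by only -0.32 and -0.29 and were not called, so the probes of this gene did not give 1 answer. Rasgrp1, which links the receptor to Ras, measured 8.93 and 8.89 in WT Foxp3-, 7.27 and 7.76 in KO Foxp3-, 7.74 and 7.84 in WT Foxp3+ and 7.11 and 8.05 in KO Foxp3+ cells and had the lowest KO value of the group (-1.40 (SE 0.28)). A brighter Rasgrp1 probe that was no member differed by -0.28 and was not called, and a dim one was called lower and detected on neither KO Foxp3- array.

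The remaining signalling members were targets and surface receptors. Egr1, an early-response factor induced by receptor signals, measured 12.51 and 12.53 in WT Foxp3-, 11.93 and 11.80 in KO Foxp3-, 11.87 and 11.74 in WT Foxp3+ and 12.08 and 11.98 in KO Foxp3+ cells, with the other 6 arrays all below the WT Foxp3- arrays and close together. Bcl2l11 (Bim), which drives the death of strongly signalled thymocytes, measured 8.05 and 8.20 in WT Foxp3-, 7.17 and 7.38 in KO Foxp3-, 7.17 and 7.28 in WT Foxp3+ and 6.82 and 7.39 in KO Foxp3+ cells. Egr1 and Bcl2l11 are on a list of T cell receptor induced genes, which was split. Of its 16 tested probes, 6 were called lower and 2 higher in KO Foxp3- cells (median -0.306). Between the WT fractions 4 were lower and 4 higher in Foxp3+ cells (median -0.0115). Of all probes, 10.9% and 16.6% were called lower in these comparisons. On the list were 2 member probes, whose lower values the rule required, and 2 other Bcl2l11 probes were also called lower in KO Foxp3- cells. Ccr8, a chemokine receptor, measured 9.84 and 9.89 in WT Foxp3-, 9.06 and 9.01 in KO Foxp3-, 8.68 and 8.43 in WT Foxp3+ and 7.91 and 8.14 in KO Foxp3+ cells and stepped down from group to group. Cd8b1, the CD8 beta chain, measured 10.64 and 10.65 in WT Foxp3-, 9.66 and 9.76 in KO Foxp3-, 10.08 and 9.84 in WT Foxp3+ and 10.32 and 9.56 in KO Foxp3+ cells. Replicate 1 of KO Foxp3+ cells lay between the WT Foxp3+ and the WT Foxp3- arrays. Cd8b1 is also on the list of CD8 T cell markers, whose summed level was 11.1 in WT and 12.5 in KO Foxp3- cells. Across the whole list of receptor complex and proximal signalling genes, 10 of 27 probes were called lower and 2 higher in KO Foxp3- cells. In WT Foxp3+ cells 12 were lower and 0 higher. Among the 27 were 4 member probes, whose lower values the rule required, and 10.9% and 16.6% of all probes were called lower. Fyn (1 of 2 probes, -0.99) and Zap70 (-0.68 on 1 of 3 probes and 0.36 on another) were among those called in KO that were not members.

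Transcription and chromatin members showed intermediate levels in KO Foxp3- cells. Lef1 (chr3:131110297-131224357), a T cell factor of the Wnt pathway, had 2 member probes, one at 8.82 and 8.85 in WT Foxp3-, 7.93 and 7.87 in KO Foxp3-, 7.08 and 6.92 in WT Foxp3+ and 6.74 and 7.13 in KO Foxp3+ cells. All 4 Foxp3+ arrays lay below the KO Foxp3- arrays, and those lay below the WT Foxp3- arrays; the second probe (10.17 and 10.17 in WT Foxp3-, 9.63 and 9.36 in KO Foxp3-, 8.49 and 8.39 in WT Foxp3+ and 8.73 and 8.31 in KO Foxp3+ cells) had the same order. Ikzf1 (Ikaros, a zinc-finger regulator of lymphocyte development) measured 11.16 and 11.18 in WT Foxp3-, 10.43 and 10.46 in KO Foxp3-, 9.68 and 9.55 in WT Foxp3+ and 9.45 and 9.42 in KO Foxp3+ cells on its member probe. A second Ikzf1 probe, whose place in the transcript is not given, went the other way in KO Foxp3- cells (0.59, not called) and was lower in WT Foxp3+ cells (-0.86, adjusted p = 0.0278, limma). Sall2, a zinc-finger factor, measured 9.25 and 9.0 in WT Foxp3-, 8.15 and 8.09 in KO Foxp3-, 7.04 and 6.98 in WT Foxp3+ and 7.53 and 7.07 in KO Foxp3+ cells, and Gtf2ird1, related to the general factor TFII-I, measured 8.86 and 8.55 in WT Foxp3-, 7.61 and 7.57 in KO Foxp3-, 6.62 and 6.22 in WT Foxp3+ and 6.54 and 6.12 in KO Foxp3+ cells. In both, the KO Foxp3- arrays fell between those of the WT fractions. Smarcc1, a core subunit of the BAF remodeller, measured 7.93 and 7.96 in WT Foxp3-, 7.10 and 7.02 in KO Foxp3-, 7.14 and 6.99 in WT Foxp3+ and 6.71 and 6.70 in KO Foxp3+ cells and was the exception, with KO Foxp3- and WT Foxp3+ cells overlapping. In the list of T cell transcription factors, 5 of 25 probes were called lower and 1 higher in KO Foxp3- cells. In WT Foxp3+ cells 9 were lower and 2 higher. Of all probes, 10.9% and 16.6% were called lower, and 3 of the 25 were members, whose lower values the rule required.

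Both interferon-induced members had narrow spreads. Isg15, a ubiquitin-like protein, measured 10.17 and 10.11 in WT Foxp3-, 8.93 and 8.93 in KO Foxp3-, 8.48 and 8.49 in WT Foxp3+ and 8.07 and 8.02 in KO Foxp3+ cells, a step down at each group with no overlap. Rsad2 (viperin, an antiviral enzyme) measured 9.30 and 9.34 in WT Foxp3-, 8.44 and 8.58 in KO Foxp3-, 8.16 and 8.06 in WT Foxp3+ and 8.06 and 8.09 in KO Foxp3+ cells. Of the 16 probes of the list they came from, 3 were called lower and 1 higher in KO Foxp3- cells. The lower ones were Isg15, Rsad2 and 1 of 3 Usp18 probes, and the higher one was 1 of 3 Ifit3 probes. In WT Foxp3+ cells 9 were lower and 0 higher, and 9 and 0 in KO Foxp3+ against KO Foxp3- cells. Of all probes 10.9% were called lower in KO Foxp3- and 16.6% in WT Foxp3+ cells, and the rule required this direction of the 2 members.

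Among RNA genes, Drosha (chr15:12824804-12935291), the nuclease that cuts primary microRNAs, had the lowest fraction difference of all members. Its 2 probes measured 10.46 and 10.61 in WT Foxp3-, 9.10 and 8.82 in KO Foxp3-, 7.26 and 7.30 in WT Foxp3+ and 7.80 and 7.23 in KO Foxp3+ cells, and 11.33 and 11.23 in WT Foxp3-, 9.96 and 10.15 in KO Foxp3-, 8.68 and 8.76 in WT Foxp3+ and 9.10 and 8.52 in KO Foxp3+ cells. On both, KO Foxp3- cells stood about midway between WT Foxp3- and the Foxp3+ groups. The difference of the first was -1.58 (SE 0.19) in KO Foxp3- cells and -3.26 (SE 0.19) between the WT fractions. Mex3a, an RNA-binding protein, measured 7.16 and 7.32 in WT Foxp3-, 5.99 and 6.12 in KO Foxp3-, 5.87 and 5.33 in WT Foxp3+ and 5.74 and 5.48 in KO Foxp3+ cells, with both KO Foxp3- arrays above all Foxp3+ arrays.

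Xist, the RNA that silences an X chromosome in female cells, was unlike the rest. It had 2 member probes, one at 6.80 and 6.89 in WT Foxp3-, 5.74 and 5.58 in KO Foxp3-, 5.73 and 5.54 in WT Foxp3+ and 6.43 and 6.26 in KO Foxp3+ cells. KO Foxp3+ cells lay above KO Foxp3- and WT Foxp3+ cells, and the 2 Xist probes were the only members called higher in KO Foxp3+ than in KO Foxp3- cells (2 of 147; 12.1% of all probes were called higher). The Y-linked genes Eif2s3y, Kdm5d and Uty were detected on every array. Eif2s3y measured 9.38 and 9.44 in WT Foxp3-, 9.99 and 9.96 in KO Foxp3-, 9.52 and 9.73 in WT Foxp3+ and 9.73 and 9.22 in KO Foxp3+ cells. The sex of the mice behind each array is not given, and its part in the Xist values was not tested.

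Cytoskeletal members differed in their patterns, with ratios of the KO difference to the fraction difference from 0.454 to 2.45 on the authors' values. Msn (moesin, which ties actin to the membrane) measured 11.09 and 11.09 in WT Foxp3-, 9.64 and 9.72 in KO Foxp3-, 10.32 and 10.33 in WT Foxp3+ and 9.44 and 10.20 in KO Foxp3+ cells, with KO Foxp3- cells well below WT Foxp3+ cells and KO Foxp3+ arrays apart. Marcks, an actin-binding substrate of protein kinase C, measured 9.39 and 9.33 in WT Foxp3-, 7.81 and 8.09 in KO Foxp3-, 8.43 and 8.42 in WT Foxp3+ and 8.52 and 8.01 in KO Foxp3+ cells with the same order. Arhgap20 measured 8.43 and 8.50 in WT Foxp3-, 6.44 and 6.67 in KO Foxp3-, 8.28 and 7.24 in WT Foxp3+ and 7.10 and 7.62 in KO Foxp3+ cells; its WT Foxp3+ arrays were far apart, and 1 of them nearly reached WT Foxp3- cells. Stmn1 (stathmin, which destabilizes microtubules) measured 8.93 and 8.91 in WT Foxp3-, 7.30 and 8.0 in KO Foxp3-, 6.47 and 6.09 in WT Foxp3+ and 6.43 and 5.32 in KO Foxp3+ cells and went the other way, with Foxp3+ cells far below KO Foxp3- cells. Vim, the intermediate filament vimentin, measured 11.20 and 11.20 in WT Foxp3-, 10.74 and 10.60 in KO Foxp3-, 10.39 and 10.02 in WT Foxp3+ and 9.73 and 10.08 in KO Foxp3+ cells and was not called in KO Foxp3- cells.

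Among the 20 metabolic probes, Acaa2, a thiolase of mitochondrial fatty acid oxidation, had 4, the most of any gene. Their KO differences were -1.05 (SE 0.18), -0.95 (SE 0.12), -0.90 (SE 0.12) and -0.73 (SE 0.19), and their fraction differences ran from -0.95 to -0.79. Ampd1, an AMP deaminase, measured 10.23 and 10.26 in WT Foxp3-, 9.34 and 9.49 in KO Foxp3-, 7.91 and 7.96 in WT Foxp3+ and 8.15 and 8.55 in KO Foxp3+ cells on one of 2 probes, and Ckb, the brain-type creatine kinase, measured 12.25 and 12.10 in WT Foxp3-, 11.29 and 11.19 in KO Foxp3-, 10.21 and 10.22 in WT Foxp3+ and 10.23 and 10.15 in KO Foxp3+ cells. In both genes KO Foxp3- cells lay between the WT fractions. Tfrc, the transferrin receptor, measured 9.96 and 10.12 in WT Foxp3-, 9.35 and 9.44 in KO Foxp3-, 8.99 and 8.89 in WT Foxp3+ and 9.16 and 9.24 in KO Foxp3+ cells on one of 2 probes. Akr1c18, an aldo-keto reductase that inactivates progesterone, measured 6.12 and 6.12 in WT Foxp3-, 4.28 and 4.27 in KO Foxp3-, 4.22 and 4.35 in WT Foxp3+ and 4.30 and 4.27 in KO Foxp3+ cells. It was detected only on the WT Foxp3- arrays, at least 2.51-fold above KO Foxp3- and at least 2.77-fold above WT Foxp3+ cells.

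Of the 44 members with other roles, Rgcc had the second lowest fraction difference on the authors' values (-2.41) and measured 11.40 and 11.45 in WT Foxp3-, 10.88 and 10.88 in KO Foxp3-, 9.10 and 8.46 in WT Foxp3+ and 9.49 and 8.93 in KO Foxp3+ cells. KO Foxp3- cells stayed near the WT Foxp3- level, and its difference there on the authors' values was -0.52. Snn (stannin) measured 10.33 and 10.51 in WT Foxp3-, 9.50 and 9.57 in KO Foxp3-, 8.03 and 8.20 in WT Foxp3+ and 8.50 and 7.83 in KO Foxp3+ cells with a like order. Tex9, a testis-expressed gene, measured 8.43 and 8.22 in WT Foxp3-, 6.40 and 6.22 in KO Foxp3-, 6.67 and 6.52 in WT Foxp3+ and 5.68 and 5.12 in KO Foxp3+ cells, with no overlap between groups and KO Foxp3- below WT Foxp3+ cells. Aqp9, a channel for water and glycerol, measured 7.73 and 7.69 in WT Foxp3-, 6.79 and 6.84 in KO Foxp3-, 5.55 and 5.32 in WT Foxp3+ and 4.54 and 4.36 in KO Foxp3+ cells and was detected on neither KO Foxp3+ array, which makes it at least 4.40-fold higher in KO Foxp3- than in KO Foxp3+ cells. The member probes of Tgfbr3 and Slc15a1, a co-receptor of TGF-beta and a peptide transporter, were detected on both WT Foxp3- arrays and on neither KO Foxp3- array, at least 2.71-fold and at least 2.37-fold higher in WT. A brighter Tgfbr3 probe that was no member was detected on all these arrays and differed by 0.12 (not called), so the probes of this gene disagreed. Sgk3, Ndrg1, Ube2e3, Kcnmb4, Atp6ap2, Spc25, Mlec, Nt5c3b and Bzw2 also had 2 member probes each.

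Other probes of the same genes read the same RNA on the same arrays. There were 75 such probes of 47 member genes; each had failed the rule, 2 of them (probes of Pvr and Abcb9) on the third criterion alone, so their values are a description. In KO Foxp3- cells 39 were called lower, 1 higher (Sptbn1, a spectrin) and 35 were not called, and 68 had a negative value; their median was -0.543. Between the WT fractions 52 were called lower and 0 higher, with a median of -0.638, and 33 were called lower in both comparisons. In Foxp3+ cells 1 was called lower and 2 higher in KO.

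Within the KO, most members separated the fractions less far than in WT. The median difference of KO Foxp3+ minus KO Foxp3- was -0.328, against -1.14 in WT and -0.029 over all probes in KO. Both KO Foxp3+ arrays lay below both KO Foxp3- arrays for 80 members, above for 8, and 59 overlapped. The shares of all probes were 32.8% below and 28.3% above. Of the members 55 were called in either direction (24.1% of all probes were), 53 lower and 2 higher. Over all probes 1619 were called lower and 1642 higher, and 2311 and 1275 with median scaling. By role, 7 of 8 transcription probes, 2 of 2 interferon probes and 23 of 44 with other roles were called lower, against 3 of 27 division and 0 of 8 histone probes. This difference follows from those the rule used (the WT fraction difference plus the third one, less the KO difference of the Foxp3- groups), so a small value follows from the choice for every probe where the KO difference matched the fraction difference. Among the 478 probes that were lower in WT Foxp3+ cells but not lowered in KO Foxp3- cells, 344 were called lower in KO Foxp3+ cells and 0 of the 30 cell cycle list probes were present, compared with 5 of 30 among the 147. The difference between these shares was not tested, because the rule for either set fixes much of it.

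The E-box, the site of the deleted factors, was counted in the same promoter windows. Cd3g and Lef1 are shown, with every CANNTG in capitals; they lie at chr9:44980432-44980681 (minus strand) and chr3:131110047-131110296 (plus strand), the first of the annotated Lef1 starts.
Cd3g: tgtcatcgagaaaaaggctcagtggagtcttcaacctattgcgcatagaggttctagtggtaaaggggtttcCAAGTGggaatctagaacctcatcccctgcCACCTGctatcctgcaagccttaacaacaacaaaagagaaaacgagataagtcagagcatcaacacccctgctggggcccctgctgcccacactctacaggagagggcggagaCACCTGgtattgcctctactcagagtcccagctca
Lef1: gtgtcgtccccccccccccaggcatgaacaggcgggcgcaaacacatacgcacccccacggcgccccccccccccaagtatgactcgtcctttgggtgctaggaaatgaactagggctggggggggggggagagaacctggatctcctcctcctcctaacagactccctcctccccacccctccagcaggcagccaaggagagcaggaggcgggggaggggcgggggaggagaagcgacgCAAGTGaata
The Cd3g window held 3 E-boxes, 2 of them CAGGTG read on the other strand as CACCTG, and the Lef1 window held 1. Over the 125 windows of member genes 54.4% held CANNTG, 11.2% CAGCTG and 12% CAGGTG on either strand. The shares were 59%, 12.2% and 16% for the 10542 windows of genes with a probe in the authors' table. Over all 125 member windows, the shares were not above that background. By role, CANNTG was in 14 of 21 windows of division members (66.7%, above the 59%) and in 3 of 8 of histone members (37.5%). CAGCTG was in 9.52% and CAGGTG in 4.76% of the division windows, both below the background, and each was in 0 of 8 histone windows. Whether any role differed from the background was not tested. E-boxes outside these 250 bases, enhancers included, were not analysed here.

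The interaction, which takes the KO effect in the Foxp3+ fraction and subtracts that in the Foxp3- fraction, had a median of 0.848 over the members and was called for 45 of them, all positive (1.74% of all probes were called positive). It is built from the differences that chose the members and so follows their signs. In 6 of the 45 a group was detected on neither array, so that their values have only bounds. With 1 array left out the count ran from 12, without WT Foxp3- replicate 1, to 74, without KO Foxp3+ replicate 2. Xist (1.90 (SE 0.17)) and Depdc1b (1.35 (SE 0.17)) were among the called ones.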

How the data were processed

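Expression was measured with an Illumina bead array in 8 samples of sorted mouse thymocytes, 4 groups of 2. The authors deposited intensity values per probe, not normalized between arrays, with a detection p-value for each; the submitters' processing notes name GenomeStudio 2011.1. They also deposited a log2 table of 14942 probes, which was rebuilt to within 0.000675 by quantile normalizing uncorrected log2 intensities. The membership rule was put on that log2 table. The genome build of the array design is not given in the sources used here.

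From the 25697 probes of the intensity table, neqc in limma 3.58.1 (R 4.3.3; offset 16, negative controls inferred from the detection p-values) gave background-corrected, quantile-normalized log2 levels. The 13526 probes that at least 2 arrays detected (p under 0.05) were fitted with lmFit and eBayes on 4 group means over all 8 arrays, with 4 residual degrees of freedom, two-sided tests and Benjamini-Hochberg adjustment. An exact permutation test of 2 against 2 arrays cannot go below p = 0.333. The number of arrays limits the precision. Where neither array of a group detected a probe, folds are bounds: the brighter mean is set against the dim probe's signal or the lowest detected signal on that array, whichever was higher. Genes were named from GEO's platform annotation, updated by gene identifier to RefSeq on GRCm38.p6: 14017 probes had 1 symbol, 925 none and 0 several. The fit was tested on simulated data.

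The members, gene lists and marker lists were chosen with earlier results of these data known. Named were the 12 lowest members by each of the 2 lowering differences, members in a list, those beside a threshold, all probes of the deleted genes and Foxp3, and genes with several member probes; other genes, chosen by role, were picked after their values were seen. Same-numbered replicates did not deviate together (correlations of -0.0295 to 0.0999), so they were not paired. All array headers carry the same number with a letter from A to H, and what these stand for is not given in the labels. The letters run in pairs by group. Any effect of this order cannot be told apart from the group differences. Alternatives covered background, normalization, filter, fit, thresholds and each array left out.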

Additional observations from a re-analysis of the deposited data

Results flagged for a closer look

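For 45 members the KO difference in Foxp3+ cells differed from that in Foxp3- cells by the interaction test (limma, adjusted over 13526 probes); the rule required a lower level in KO Foxp3- cells and none or little change in Foxp3+ cells, so this was built into their choice. Among the genes named for low values or list membership, the interaction on the log2 scale was 1.81 and 1.30 for the 2 Drosha probes, 1.24 and 1.12 for the 2 Ampd1 probes, 1.30 for Sall2 and 0.90 for Ckb. In the division and signalling groups it was 1.04 for a Birc5 probe, 0.86 for Tyms and 0.89 for Egr1, and for the interferon genes 0.78 (Rsad2) and 0.77 (Isg15). Groups of 2 arrays are too small for a check of single outlying arrays.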

How the results depend on the processing

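Leaving out each array in turn gave 85 to 144 members called between KO and WT in Foxp3- cells (135 with all arrays), 110 to 146 between the WT fractions, 1 to 23 in Foxp3+ cells, 38 to 70 between the KO fractions and 12 to 74 for the interaction. Over all probes the ranges were 1115 to 3608, 2367 to 4912, 165 to 1039, 1607 to 3178 and 281 to 1098 in the same order. The number of members ran from 135 to 160 and their median ratio of KO to fraction difference from 0.8623 to 0.9149. For 48 members the KO Foxp3+ arrays lay on both sides of the KO Foxp3- mean, so that the sign of the difference depended on which was kept. For 5 of the 94 named probes, leaving 1 of them out gave a call opposite in sign to the full fit; with replicate 1 and then replicate 2 left out the differences were -0.66 and 0.63 for H2ac10, -0.67 and 0.48 for H2ac12, -0.61 and 0.88 for Uhrf1, -0.57 and 0.64 for H2ac24, and -0.77 and 0.95 for Mcm10. None of these was called with all arrays.

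For KO against WT in Foxp3+ cells, 523 probes and 7 members were called. The numbers were 981 and 13 on the authors' values, 971 and 12 without background subtraction, 860 and 14 with an offset of 50, 962 and 15 with an intensity trend, and 158 and 1 with only the 4 arrays compared. Array weights gave 330 probes, and the stricter detection filter 11 members. For the interaction, 715 probes and 45 members were called; the authors' values gave 94 members, no background subtraction 98, the offset 83, and the trend 1093 probes and 73 members. Using only the 4 KO arrays left 1959 of 3261 calls between the KO fractions. The cause of these shifts was not tested. The rule on background-corrected values gave 478 probes with a median ratio of 0.9162; thresholds of 0.4, 0.6 and, on the lowering differences alone, 1 gave 256, 84 and 9 members, with ratios of 0.8732 and 1.035 for the first and last. Leaving both KO Foxp3+ arrays out of the fit, chosen after seeing the data, gave 144 members called in KO Foxp3- cells and 146 in WT Foxp3+ cells. The replicate block left 138, 137, 5, 52 and 39 members called in the 5 comparisons and changed no count by more than 1.5 times. Dim probes, several of them undetected outside WT Foxp3- cells, carry only bounds.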
